A study of Mus musculus with 5 samples.

Results

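The proteasome is the barrel-shaped protease that degrades ubiquitin-tagged proteins, and its parts are encoded by the genes whose symbols begin with Psma, Psmb, Psmc, Psmd, Psme, Psmf and Psmg. Genes were taken by that pattern of symbol, followed by a digit, among the probes that the array's annotation assigns to a single gene symbol. This gave 49 of 22180 measured symbols. Where a symbol had several probes the one with the highest mean over the 5 arrays was used. By role, 14 genes encode the core particle, 4 the immunoproteasome and thymoproteasome subunits, 17 the regulatory cap, 5 the activators and an inhibitor, and 7 the assembly chaperones. The remaining 2, Psmc3ip, a meiotic recombination factor, and Psme3ip1, a partner of the activator encoded by Psme3, match the pattern without being subunits and are kept apart. Psma4 and Psme2b had no probe with their symbol alone.

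In the core particle, alpha subunits form the outer rings and gate the entrance, and beta subunits form the inner rings that hold the cutting sites. The regulatory cap binds ubiquitin chains, removes them, and unfolds the substrate with a ring of ATPases. Under interferon gamma the 3 cutting subunits can be replaced by the immunoproteasome subunits, and alternative activators can take the place of the cap. When the proteasome is overloaded or inhibited, the transcription factor NRF1, encoded by Nfe2l1, acts on subunit genes together through antioxidant response elements. In heart muscle the proteasome clears oxidised and misfolded sarcomere and mitochondrial proteins, and it has been studied for its loss of activity during ischemia and reperfusion.

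Hearts came from wildtype C57Bl6J mice, taken 12 h after lights on (zeitgeber 12). All 5 hearts were perfused on a Langendorff apparatus, with buffer delivered to the isolated organ through the aorta, for 20 min of stabilisation, 20 min without flow and 20 min of reperfusion, and were then frozen. The antagonist group (n = 3) received an intraperitoneal antagonist of REV-ERB alpha, given by the labels as 10 µM, 4 h and 1 h before the protocol, and the sham group (n = 2) received none. REV-ERB alpha is a repressor in the circadian clock, encoded by Nr1d1. The labels name neither the compound nor a vehicle, and hearts without ischemia were not analysed here. Each value is a log2 expression value of total RNA from 1 heart on 1 Affymetrix array. The labels describe the arrays as biological replicates, and their number limits the precision of every comparison. Levels of different genes are not compared, because probes differ in brightness.

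The arrays differed in ways that bear on these genes. The summed linear level of 12 heart muscle markers lay between 47100 and 49500 on all 5 arrays, and all 12 passed the level filter. Antagonist replicate 2 stood out by a summed level of 11800 for 6 atrial markers, against 3340 to 4310 on the other arrays, of 507 for 6 measured adipocyte markers, against 89.0 to 111, and of 257 for 6 mesothelial markers, against 128 to 138. Sham replicate 1 alone held the lowest value of 25.9% and the highest value of 22.3% of the 15294 genes tested, more than any other array at either end. The part of these differences in the results below was not tested. The differences between groups were computed again without each array in turn.

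The question put to the arrays was how blocking REV-ERB alpha before ischemia alters the transcripts of the reperfused heart. Transcripts of proteasome genes differed little between the groups, and no gene passed the test. The median difference (antagonist minus sham) over the 49 genes was 0.018 on the log2 scale, against 0 over all genes tested, and single genes lay between -0.28 and 0.30. Of the 49 genes 30 had a higher and 19 a lower mean in the antagonist hearts, compared with 47.7% and 46.3% of all genes tested. With limma 0 of the 49 reached an adjusted p under 0.05 (background 0% of 15294 genes, by the same test), and the smallest adjusted p among them was 0.637. An unadjusted p under 0.05 was reached by 2 of 49, Psma5 higher and Psmc6 lower, beside 4.6% of all genes tested (2.23% higher and 2.37% lower). The groups did not overlap for 4 of 49, Psma5 and Psmd10 higher and Psmb11 and Psmc6 lower, beside 12.5% of all genes (6.19% higher and 6.33% lower). An absolute difference of at least 0.2 was seen for 5 of 49, or 10.2%, and for 14.9% of all genes. Apart from the share of genes with a higher mean, these shares are near or below those of the background. The share with a higher mean was 61.2%, 49.0% without sham replicate 1 or without antagonist replicate 1, and 65.3% without antagonist replicate 2. Without sham replicate 2 it stayed at 61.2%. Psma5, Psma8 and Psmb11 had means so close to the level filter that only the group in which they were higher took them past it. With these 3 genes, the only ones of mean under 4, left out, 28 had a higher and 18 a lower mean. The count at an unadjusted p under 0.05 was then 1 and that of groups without overlap was 2.

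The precision of the comparison bounds what could have been missed. The 95% interval of a difference, from limma's moderated standard error, had a median width to either side of 0.205 over the 49 genes and of 0.207 over all genes tested. For 41 of 49 genes the whole interval lay between -0.5 and 0.5, and for 48 between -1 and 1; the exception was Psme2. A difference of 1 is a doubling, and a doubling in the antagonist hearts lay outside the interval of all 49 genes. A fall of 1 lay inside the interval of Psme2 alone. Psma5, Psma8 and Psmb11 lay near the level filter, and their intervals may understate a change in the transcript. For 32 of 49 genes the 2 sham hearts differed from each other by more than the group means differed. Repeated values were common: 30 of the 49 genes (61.2%, against 73.9% of all genes) showed the same value on at least 2 arrays, and Psma5, Psmd5 and Psme3 had 1 value for all 3 antagonist hearts, so a narrow interval may understate how hearts vary.

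**Figure D1:**
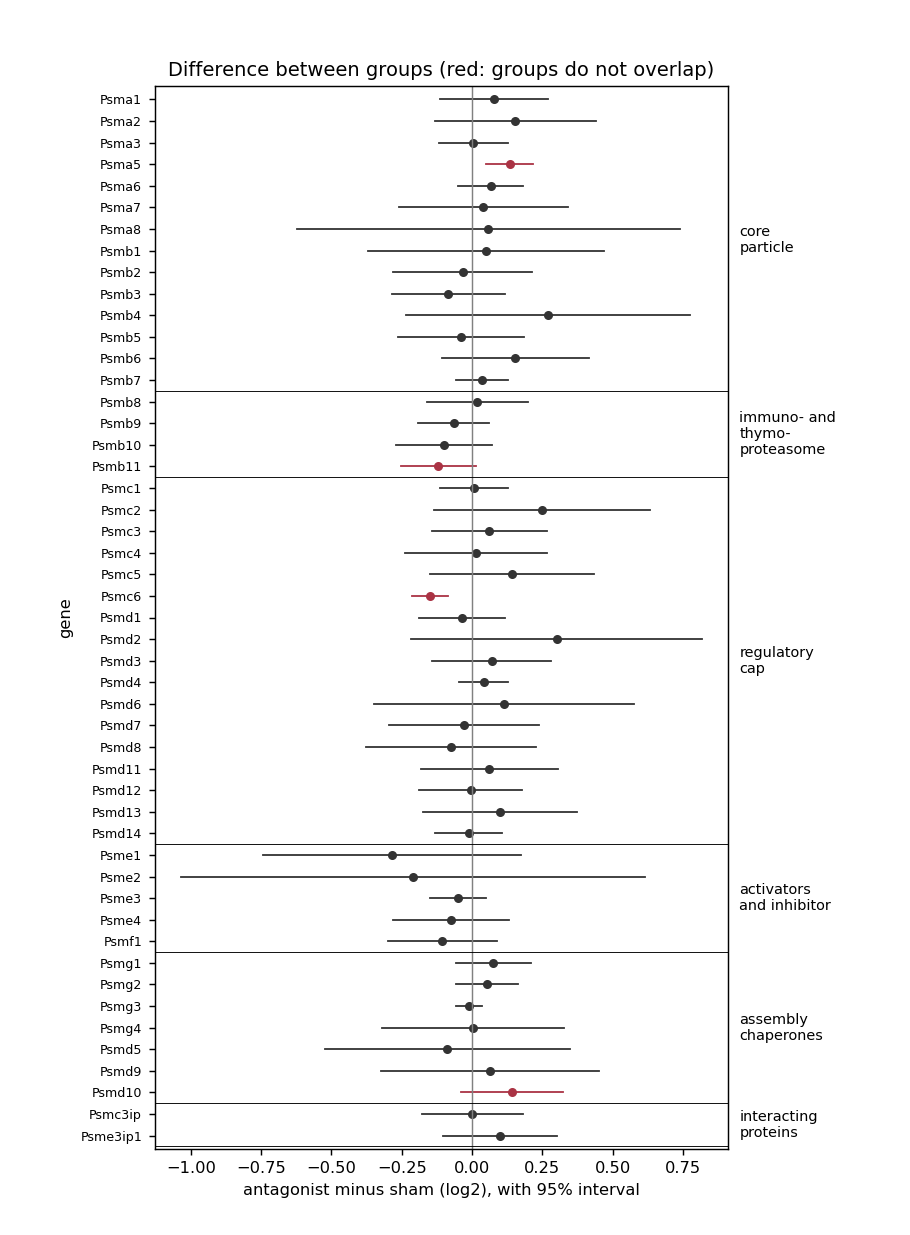
Difference between antagonist and sham hearts on the log2 scale for each of the 49 genes, by class; points are differences, bars are 95% intervals from limma's moderated standard error, and red marks the 4 genes whose groups do not overlap. Nearly all intervals include 0, the exceptions being Psma5 and Psmc6, and the widest belongs to Psme2.

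Among the core subunits 11 of 14 had a higher mean in the antagonist hearts, with a median difference of 0.054 and a range from -0.084 to 0.27. The alpha subunit genes accounted for 7 of these (7 of 7 higher, median 0.066), and 4 of 7 beta subunit genes were higher (median 0.037). The 7 alpha genes include Psma5 and Psma8, which passed the level filter only through their higher group. With the genes of mean under 4 left out the core median was 0.045. Without sham replicate 1 the core median was 0.0087 with 7 of 14 higher, and 4 of the 7 alpha genes were higher. Leaving out antagonist replicate 1 gave a core median of 0.016 with 8 of 14 higher, and antagonist replicate 3 gave 0.066 with 10 higher. The core median was 0.081 with 12 higher without antagonist replicate 2, and 0.10 with 11 higher without sham replicate 2. Of the 14 core genes, 8 had a difference that reached 0 or changed sign when some array was left out.

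Psmb4, a beta subunit of the inner ring without a cutting site (Entrez Gene 19172), had the largest difference in the core. It measured 6.22 and 6.68 in sham replicates 1 and 2, and 6.86, 6.65 and 6.65 in antagonist replicates 1 to 3. The low value of sham replicate 1 set the difference, since sham replicate 2 lay above antagonist replicates 2 and 3. The difference was 0.27 ± 0.18 (SE), or 1.21-fold, with a limma adjusted p of 0.637. It was 0.037 without sham replicate 1 and 0.50 without sham replicate 2. Psma2, an alpha subunit (Entrez Gene 19166), measured 8.21 and 8.39 in sham and 8.59, 8.39 and 8.38 with the antagonist. Antagonist replicate 1 was the highest array and sham replicate 1 the lowest, while the other 3 were nearly equal. The difference was 0.15 ± 0.10 (SE), with a limma adjusted p of 0.637. It was 0.064 without sham replicate 1 and 0.24 without sham replicate 2.

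Psma5, an alpha subunit (Entrez Gene 26442), had the smallest unadjusted p of the core genes, from values at the floor of the test. Its brighter probe measured 3.41 and 3.33 in sham and 3.50 on every antagonist array, against a level filter of 3.42 on the mean. The sham mean of 3.37 was under the filter, so the gene was tested only through the group in which it was higher, and its difference of 0.13 ± 0.029 (SE; limma adjusted p = 0.637) and lack of overlap are given as values only. A second probe of Psma5 gave a difference of the opposite sign, -0.43, at values between 1.67 and 2.72. Psma8, the testis form of an alpha subunit, was also near the filter, at 3.39 in both sham hearts and 3.16 to 3.84 with the antagonist. Its sham mean was under the filter and its antagonist mean of 3.45 above it. It was thus also tested only through its higher group, and its difference of 0.058 ± 0.24 (SE) is given as a value only. The other core genes, Psma1, Psma3, Psma6, Psma7, Psmb1, Psmb2 and Psmb3, differed by -0.084 to 0.079, and the groups overlapped for each.

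The 3 cutting subunits of the standard core are encoded by Psmb5, with chymotrypsin-like activity, Psmb6, with caspase-like activity, and Psmb7, with trypsin-like activity. Psmb5 (Entrez Gene 19173) measured 7.10 and 7.33 in sham and 7.19, 7.14 and 7.19 with the antagonist, so that all antagonist values lay between the sham values. The difference was -0.041 with an interval from -0.27 to 0.18. Psmb6 (Entrez Gene 19175) measured 7.87 and 8.07 in sham and 8.22, 8.07 and 8.07 with the antagonist. The antagonist values were at or above the higher sham value, and the difference was 0.15 with an interval from -0.11 to 0.42. It was 0.049 without sham replicate 1 and 0.26 without sham replicate 2. Psmb7 (Entrez Gene 19177) measured 9.26 and 9.18 in sham and 9.28, 9.24 and 9.26 with the antagonist. These 5 values were the closest together of the 3 genes, and the difference was 0.037 with an interval from -0.056 to 0.13. The limma adjusted p was 0.834 for Psmb5, 0.637 for Psmb6 and 0.677 for Psmb7.

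The immunoproteasome genes Psmb8, Psmb9 and Psmb10 encode the subunits that replace those of Psmb5, Psmb6 and Psmb7 in the same order. For each of the 3 the groups overlapped and the interval of the difference included 0. Psmb8 (Entrez Gene 16913) measured 6.25 in both sham hearts and 6.25, 6.37 and 6.19 with the antagonist. The antagonist values lay on both sides of the sham value, and the difference was 0.018 with an interval from -0.16 to 0.20; it was -0.031 without antagonist replicate 2. Psmb9 (Entrez Gene 16912) measured 4.97 and 5.10 in sham and 4.96, 4.97 and 4.97 with the antagonist. Sham replicate 2 was the high array and the other 4 were almost equal, giving -0.066 with an interval from -0.19 to 0.062. Psmb10 (Entrez Gene 19171) had the same pattern at 7.26 and 7.43 in sham and 7.26, 7.22 and 7.26 with the antagonist, giving -0.099 with an interval from -0.27 to 0.072. The limma adjusted p was 0.937 for Psmb8 and 0.637 for both of the others.

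Psmb11, the cutting subunit of the thymus cortex, measured 3.56 and 3.46 in sham and 3.43, 3.41 and 3.34 with the antagonist, near the level filter of 3.42. The antagonist mean of 3.39 was under the filter, so this gene too was tested only through its higher group, and its difference of -0.12 ± 0.046 (SE; limma adjusted p = 0.637) and lack of overlap are given as values only. The median over the 4 genes was -0.082, and -0.0086 without sham replicate 2, the array with the high Psmb9 and Psmb10 values. Without sham replicate 1 it was -0.10.

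In the genome Psmb9 and Psmb8 alternate with the peptide transporter genes Tap1 and Tap2, in the order Psmb9, Tap1, Psmb8, Tap2, with no other protein-coding gene between them. Tap1 measured 5.95 and 5.84 in sham and 6.02, 6.37 and 5.98 with the antagonist, and Tap2 measured 4.69 and 4.98 in sham and 4.98, 5.29 and 4.99 with the antagonist. Both were highest on antagonist replicate 2, as was Psmb8, while Psmb9 was not. Irf1, an interferon-induced activator of these genes, was highest on that array too, at 8.16 against 6.25 to 6.81 on the others. The summed linear level of 18 leukocyte markers was 1050 and 1110 in sham and 1030 to 1230 with the antagonist. Below the level filter were 8 of the 18, among them the T-cell markers Cd3e and Cd3g and the B-cell markers Cd79a, Cd79b and Ms4a1. Of the 10 tested, 6 had a higher and 2 a lower mean. Cd14 (0.67) and Itgam (0.31) were higher at an unadjusted limma p under 0.05, beside 2.23% of all genes tested. Cd68 was lower (-0.26), and for Cd14, Itgam and Cd68 the groups did not overlap. The part of leukocytes in the immunoproteasome values was not tested, and in whole tissue fewer cells of a type and less RNA per cell cannot be told apart.

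**Figure D2:**
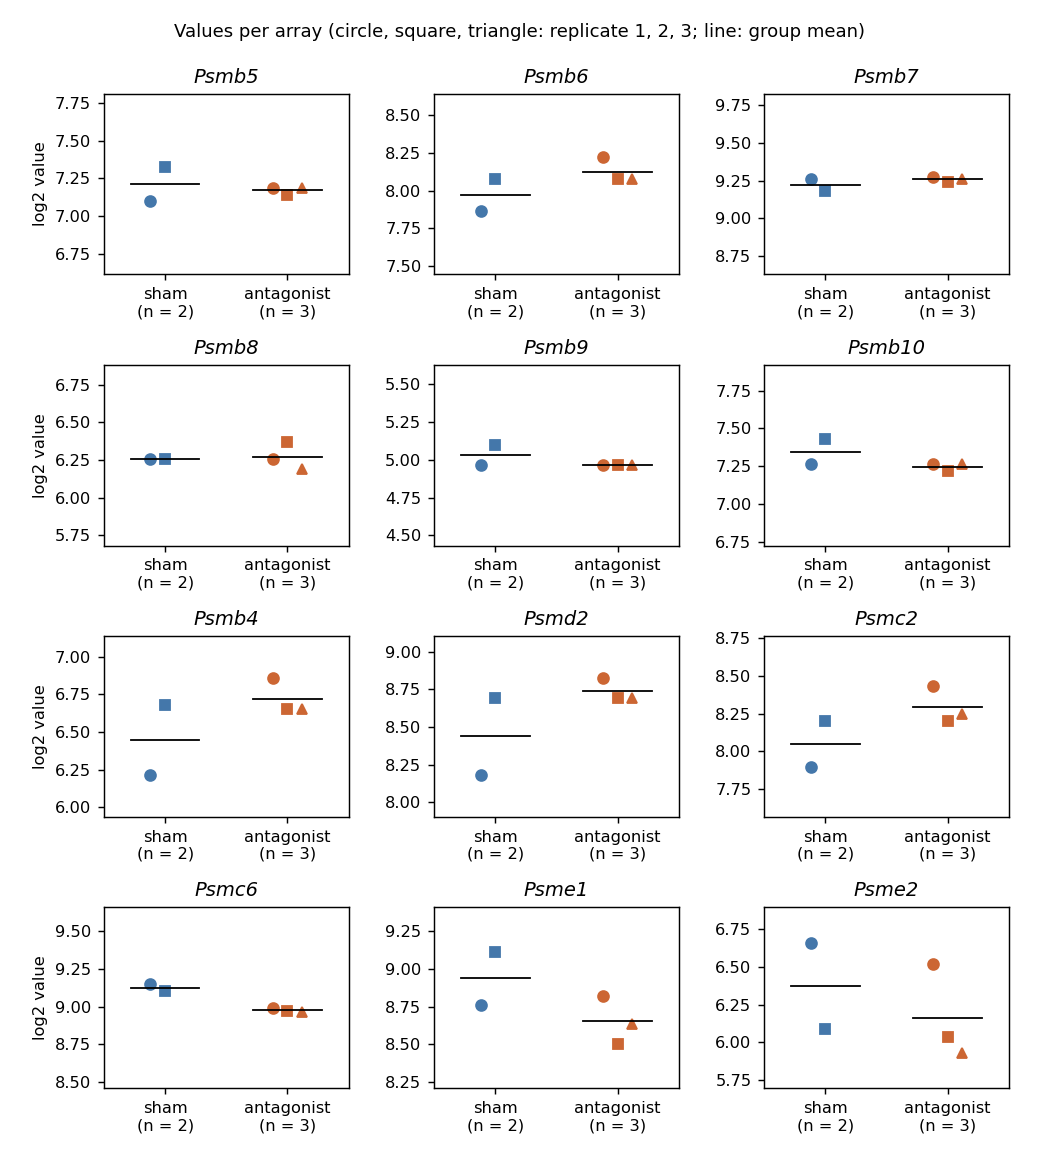
Log2 values of 12 genes on each array, with sham in blue (n = 2) and antagonist in orange (n = 3); symbols mark the replicate, lines the group mean, and every panel spans 1.2 log2 units around its own centre. The antagonist values of Psmb5 lie between the sham values, sham replicate 1 is low for Psmb4, Psmd2 and Psmc2, and only Psmc6 among the 12 has groups that do not overlap.

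Among the 17 genes of the regulatory cap 11 had a higher and 6 a lower mean, with a median of 0.041 and a range from -0.15 to 0.30. Without sham replicate 1 the median was -0.0051 with 8 of 17 higher, and without sham replicate 2 it was 0.045 with 11 higher. Without antagonist replicate 1 it was 0.0033 with 9 higher, and without antagonist replicate 2 it was 0.083 with 14 higher. For 9 of the 17 the difference reached 0 or changed sign when some array was left out.

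Psmd2 (Entrez Gene 21762), a scaffold of the cap that docks ubiquitin shuttles, had the largest difference of the 49 genes. It measured 8.18 and 8.69 in sham and 8.83, 8.69 and 8.69 with the antagonist. Sham replicate 1 was low, and sham replicate 2 equalled antagonist replicates 2 and 3. The difference was 0.30 ± 0.18 (SE), or 1.23-fold, with an interval from -0.22 to 0.82 and a limma adjusted p of 0.637. It was 0.044 without sham replicate 1 and 0.56 without sham replicate 2. Psmc2 (Entrez Gene 19181), an ATPase of the unfolding ring, measured 7.89 and 8.20 in sham and 8.44, 8.20 and 8.25 with the antagonist. The order of the arrays was like that of Psmd2, and the difference was 0.25 ± 0.13 (SE), with a limma adjusted p of 0.637. It was 0.094 without sham replicate 1 and 0.40 without sham replicate 2. A second, dimmer probe of Psmc2 gave 0.066.

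Psmc6 (Entrez Gene 67089), another ATPase of the ring, had the smallest unadjusted p of the 49 genes and went the other way. It measured 9.15 and 9.10 in sham and 8.99, 8.97 and 8.97 with the antagonist. Both sham hearts lay above all 3 antagonist hearts, by a small margin. The difference was -0.15 ± 0.023 (SE), or 0.901-fold, with an unadjusted limma p of 0.00347, an adjusted p of 0.637 and an exact two-sided permutation p of 0.10, the smallest possible. With each array left out in turn it stayed between -0.18 and -0.12. The other 4 ATPase genes, Psmc1, Psmc3, Psmc4 and Psmc5, differed by 0.0075 to 0.14, and none of the 6 but Psmc6 had groups that did not overlap.

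For each of the remaining cap genes the groups overlapped and the interval included 0. Psmd14, the deubiquitinase that removes the chain, differed by -0.012 ± 0.041 (SE), and Psmd4, a ubiquitin receptor, by 0.041 ± 0.030 (SE). Psmd11, which clamps cap and core together, differed by 0.062 ± 0.085 (SE), and Psmd1, the other large scaffold, by -0.036 ± 0.053 (SE). Psmd6, a lid subunit, had a wide gap between the sham hearts (7.11 and 7.56), with the antagonist values between them at 7.40 to 7.55. The other lid subunits Psmd3, Psmd7, Psmd8, Psmd12 and Psmd13 differed by -0.076 to 0.098. Each of these genes had a limma adjusted p of at least 0.637.

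Core and cap genes tended to share an order of the arrays rather than a difference between groups. Among the 31 genes of both, antagonist replicate 1 alone held the highest value of 18 (58.1%), compared with 15.6% of all genes tested. Sham replicate 1 alone held the lowest value of 16 (51.6%), compared with 25.9% of all genes. Antagonist replicate 1 lay above antagonist replicate 2 for 29 of the 31 and equalled it for the other 2, by a median of 0.13. Of all 15294 genes tested 5746 (37.6%) lay higher on replicate 1, 5040 lay lower and 4508 were equal. Between the sham hearts replicate 2 was higher for 21 and lower for 8 of the 31, by a median of 0.094. The median deviation of the core genes from their own means was -0.087 on sham replicate 1 and 0.080 on antagonist replicate 1, and between -0.0034 and 0.015 on the other 3 arrays. For the cap it was 0.12 on antagonist replicate 1 and lowest on antagonist replicate 2, at -0.048, followed by sham replicate 1 at -0.041, with 0.013 and 0.0094 on the others. Antagonist replicate 2, the lowest of the antagonist arrays for these genes, is the array with the high atrial and adipocyte levels given above. The genes are measured on the same 5 arrays and are not independent, so these counts describe the arrays only.

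**Figure D3:**
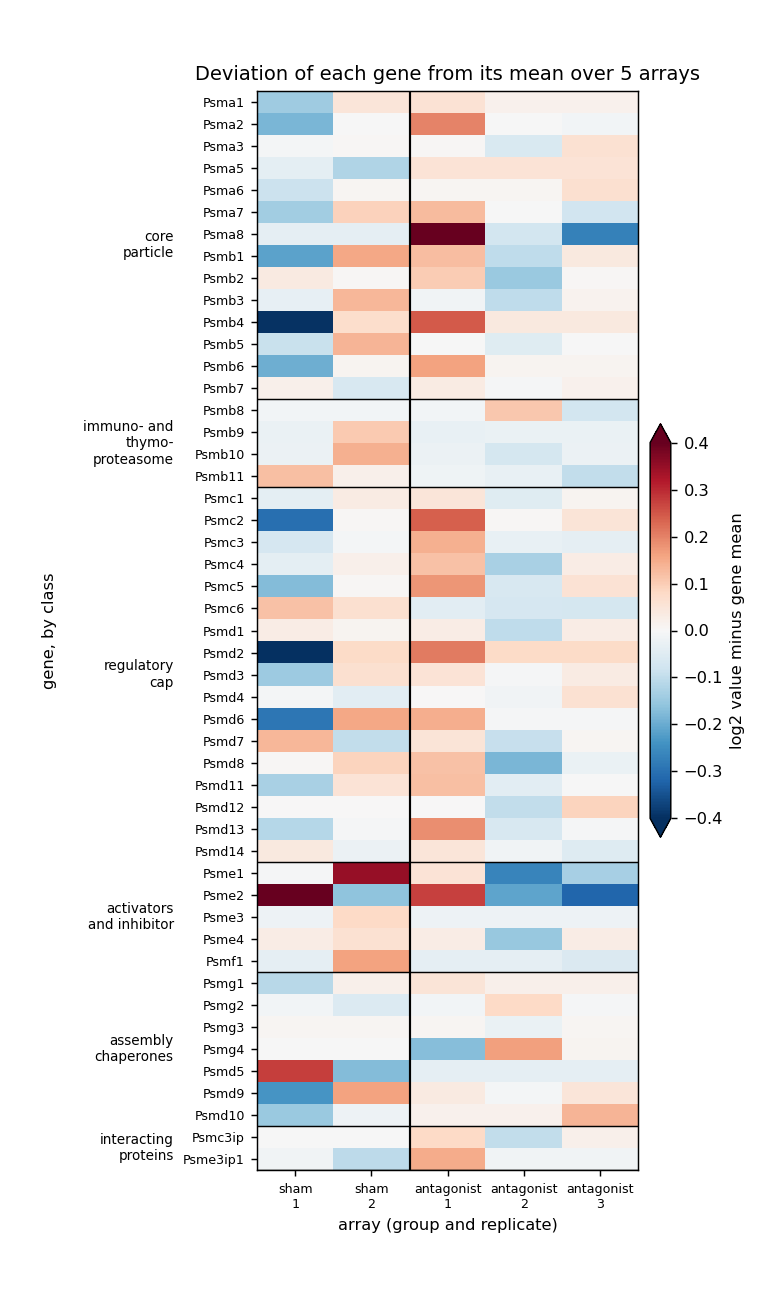
Deviation of each gene's log2 value from its own mean over the 5 arrays, with genes in rows by class and arrays in columns; the colour scale ends at -0.4 and 0.4 and a vertical line separates sham from antagonist. Many core and cap genes are low (blue) on sham replicate 1 and high (red) on antagonist replicate 1, and the activator genes Psme1 and Psme2 follow another order.

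Promoter sequences, from 250 bases before to 50 after the start, were matched for 41 of the 49 genes (RefSeq, GRCm38.p6, 45 promoters in all). They were rich in CpG dinucleotides, with a median count of 19 in 300 bases against 7 for all promoters. The antioxidant response element, the site of NRF1 and NRF2, was searched as TGACNNNGC and as TGAGNNNGC on both strands; 37.8% of the 45 promoters and 27.8% of all 32851 held either form, and 13.3% and 12.4% held the first. The sequence AGGTCA, the core of the element bound by REV-ERB and ROR receptors, was held by 24.4% of the 45 and 16.3% of all; its reverse complement TGACCT begins with the same 4 letters as the first form, so both can share bases. The sequence CCAAT was held by 35.6% of the 45 and 37.4% of all. The sites below are those of these motifs, CCAAT apart, in the cutting subunit genes and in Psmc2 and Psmd2, the cap genes with the largest differences; other genes, among them Psmc4, Psmc5, Psmd6 and Psmd12, hold sites that are not printed. Capitals mark the motif, on the strand of the gene.
Psmb5, TGACNNNGC, chr14:54618024-54618052, strand -: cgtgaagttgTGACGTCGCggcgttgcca
Psmb6, TGACNNNGC, chr11:70525338-70525356, strand +: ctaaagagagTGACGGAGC
Psmc2, TGAGNNNGC, chr5:21786603-21786631, strand +: actggagttgTGAGGGAGCggggtgaaca
Psmc2, AGGTCA, chr5:21786535-21786560, strand +: tcacgattttAGGTCAtcaactgagc
Psmd2, AGGTCA in reverse, chr16:20651428-20651453, strand +: gtcttcaggaTGACCTtctcatcgta
Psmb10, AGGTCA in reverse, chr8:105938419-105938444, strand -: tgccctcttcTGACCTtggtgggcat
The upstream 250 bases of Psmc6, the gene of smallest p, are given whole; capitals mark a TGAGNNNGC and a reversed TGACNNNGC.
Psmc6, chr14:45329574-45329823, strand +: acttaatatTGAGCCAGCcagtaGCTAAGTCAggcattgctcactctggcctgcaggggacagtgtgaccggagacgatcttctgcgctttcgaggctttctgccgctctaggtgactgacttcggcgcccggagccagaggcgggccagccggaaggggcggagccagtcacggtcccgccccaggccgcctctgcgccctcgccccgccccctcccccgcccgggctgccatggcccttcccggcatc
Genes that hold a motif went both ways. Of the 10 genes with AGGTCA only Psmb10 had a negative difference, beside 19 of all 49 genes. Psma3, Psma6, Psma7, Psmc2, Psmc3ip, Psmc4, Psmc5, Psmd2 and Psmd6 had positive ones. Without sham replicate 1 Psma3, Psma7, Psmc4 and Psmd6 turned negative. Among the 16 with either antioxidant response element form, Psmb3, Psmb5, Psmc6, Psmd1, Psmd5, Psmd12 and Psme4 were negative and the others positive. The part of the motifs in these differences was not tested. A match is a stretch of letters and was not measured as bound.

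All 5 genes of the activators and the inhibitor had a lower mean in the antagonist hearts, with a median of -0.11, yet the groups overlapped for each and none had an unadjusted limma p under 0.05. Without sham replicate 1 there were 4 lower and 1 higher (median -0.098). Without sham replicate 2, the highest array for Psme1, Psme3, Psme4 and Psmf1, there were 4 lower and 0 higher (median -0.061), with Psme3 equal. The summed level of 10 endothelial markers was also lower with the antagonist, at 4640 to 4790 against 5000 and 5010 in sham. Of the 10, 6 had a lower and 4 a higher mean, and 2, Cdh5 and Cav1, were lower at an unadjusted limma p under 0.05. The fibroblast markers were lower for 6 of 8 and higher for 1, with 1, Tcf21, lower at that threshold. Their summed levels were 4310 and 4480 in sham and 3830 to 4650 with the antagonist. Of all genes tested 2.37% were lower at that threshold. The part of endothelial cells or fibroblasts in the activator values was not tested. Psme1 and Psme2 encode the subunits of the interferon-inducible ring that opens the core without ATP, and their genes lie close together with 1 protein-coding gene between them. Psme1 (Entrez Gene 19186) measured 8.76 and 9.12 in sham and 8.82, 8.51 and 8.64 with the antagonist. Sham replicate 2 was the highest array, and antagonist replicate 1 lay above sham replicate 1. The difference was -0.28 ± 0.16 (SE), or 0.821-fold, with an interval from -0.74 to 0.18 and a limma adjusted p of 0.637. It was -0.46 without sham replicate 1 and -0.11 without sham replicate 2. Psme2 (Entrez Gene 19188) measured 6.66 and 6.09 in sham and 6.52, 6.04 and 5.93 with the antagonist. Here sham replicate 1 was the highest array, so the partners did not share the order of the sham hearts. The difference was -0.21 ± 0.29 (SE), with the widest interval of the 49 genes, -1.04 to 0.61. It was 0.078 without sham replicate 1 and -0.50 without sham replicate 2. The promoter of Psme1 is shown whole for its upstream 250 bases as that of the gene with the lowest difference; none of the motifs TGACNNNGC, TGAGNNNGC, AGGTCA and CCAAT is in these letters.
Psme1, chr14:55578244-55578493, strand +: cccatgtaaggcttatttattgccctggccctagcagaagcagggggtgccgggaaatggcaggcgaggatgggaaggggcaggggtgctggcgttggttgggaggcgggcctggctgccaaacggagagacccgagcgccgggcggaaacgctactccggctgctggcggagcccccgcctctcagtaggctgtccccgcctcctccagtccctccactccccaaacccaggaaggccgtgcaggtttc

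Psmf1 (Entrez Gene 228769), an inhibitor of the core in vitro, measured 5.96 and 6.16 in sham and 5.96, 5.96 and 5.94 with the antagonist. Sham replicate 2 was the high array and the other 4 were nearly equal. The difference was -0.11 ± 0.067 (SE), with -0.0077 without that array and -0.20 without sham replicate 1. Psme3, of the nuclear activator ring, measured 6.26 on 4 arrays and 6.36 in sham replicate 2, and differed by -0.049 ± 0.035 (SE). Psme4, of the large single-chain activator, was lowest on antagonist replicate 2, at 10.04 against 10.22 to 10.25 on the other arrays, and differed by -0.075 ± 0.072 (SE).

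Among the 7 assembly chaperones 5 had a higher and 2 a lower mean, with a median of 0.053. Psmd10 (Entrez Gene 53380), which binds a cap ATPase before assembly and is known as gankyrin, measured 5.94 and 6.07 in sham and 6.11, 6.11 and 6.23 with the antagonist. The groups did not overlap, and the antagonist replicates 1 and 2 lay just above the higher sham value. The difference was 0.14 ± 0.063 (SE), or 1.10-fold, with a limma adjusted p of 0.637 and an exact permutation p of 0.10. It was 0.079 without sham replicate 1 and 0.20 without sham replicate 2. Psmd5 (Entrez Gene 66998), another chaperone of the cap base, measured 7.54 and 7.09 in sham and 7.23 on every antagonist array. The antagonist value lay between the sham values, and the difference of -0.088 became 0.14 without sham replicate 1 and -0.31 without sham replicate 2. Psmg1 (Entrez Gene 56088), a chaperone of the alpha ring, measured 5.96 and 6.09 in sham and 6.12, 6.09 and 6.09 with the antagonist. Its difference was 0.075 ± 0.047 (SE), with 0.010 without sham replicate 1 and 0.14 without sham replicate 2. Psmg2, the partner of Psmg1, differed by 0.053, Psmd9 by 0.062, and the pair Psmg3 and Psmg4 by -0.011 and 0.0034. Of the genes that are not subunits, Psme3ip1 differed by 0.099 ± 0.071 (SE) and Psmc3ip by 0.0014 ± 0.063 (SE).

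**Figure D4:**
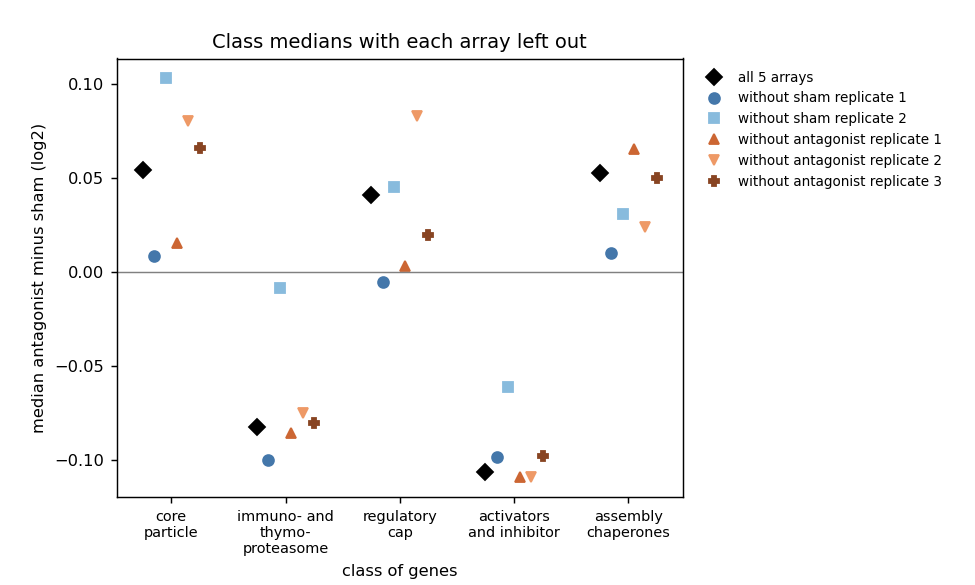
Median difference (antagonist minus sham, log2) of each class with all 5 arrays and with each array left out in turn. The medians of the core and cap move towards 0 without sham replicate 1 or antagonist replicate 1, that of the immunoproteasome group without sham replicate 2, and the activator group stays between -0.11 and -0.061. The core median moves away from 0, to 0.10, without sham replicate 2.

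The genes around the proteasome were taken from 7 lists with 67 tested members, of which 49 had a higher and 17 a lower mean. These counts were 39 and 25 without sham replicate 1, and 49 and 17 without sham replicate 2. Which of the 2 sham arrays is the more typical cannot be told from 2 arrays. With limma 0 of the 67 passed an adjusted p under 0.05. An unadjusted limma p under 0.05 was reached by 3 higher genes (4.48%), Mafg, Ube2k and Stat2, and 1 lower gene (1.49%), Ube2d3. The shares of all genes tested were 2.23% and 2.37%. The groups did not overlap for Maff, Mafg, Ube2k, Ubqln1, Sqstm1, Fbxo32, Tap1, Calr, Stat2 and Igtp, all higher, and for Ube2d3 and Ubqln2, both lower. Of all genes tested 6.19% were higher and 6.33% lower without overlap. Most genes named below were picked for a small p, which favours a lack of overlap. Of 9 genes that control subunit transcription 7 were higher (median 0.035), 4 without sham replicate 1 and 6 without sham replicate 2. Mafg, a small partner of NRF1 and NRF2 on DNA, measured 5.22 and 5.34 in sham and 5.55, 5.61 and 5.63 with the antagonist. Its groups did not overlap, and the difference was 0.32 ± 0.051 (SE; limma adjusted p = 0.637). Maff, its relative, differed by 0.26 ± 0.11 (SE), also without overlap. Nfe2l1 itself measured 8.03 and 8.33 in sham and 8.26 on each antagonist array, a difference of 0.081 ± 0.10 (SE). That difference was -0.070 without sham replicate 1 and 0.23 without sham replicate 2.

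Of 6 measured ubiquitin and conjugation genes 1 was higher and 5 lower (median -0.056). The ubiquitin-conjugating enzyme gene Ube2d3 measured 9.80 and 9.78 in sham and 9.65, 9.65 and 9.69 with the antagonist, a difference of -0.13 ± 0.020 (SE; limma adjusted p = 0.637). Ube2k, which extends ubiquitin chains, differed by 0.059 ± 0.020 (SE), also without overlap. Of 10 shuttle and segregase genes, which bring substrates to the cap, 8 were higher (median 0.092). The median was 0.027 without sham replicate 1 and 0.20 without sham replicate 2. Sqstm1, an autophagy receptor for ubiquitin, differed by 0.39 ± 0.19 (SE) and Ubqln1 by 0.18 ± 0.10 (SE). These were 0.67 and 0.32 without sham replicate 2, and 0.11 and 0.044 without sham replicate 1. On sham replicate 1 the list's summed linear level was 2940 against 3600 to 3840 on the others. Of 10 proteasome-associated factors 8 were higher (median 0.045), 5 without sham replicate 1 (median 0.00050) and 9 without sham replicate 2 (median 0.075). Ecpas, a scaffold of the assembled particle, differed by 0.064 ± 0.032 (SE) and Zfand2a, a stress-induced cap partner, by -0.38 ± 0.22 (SE). These were 0.035 and -0.085 without sham replicate 1, and 0.093 and -0.67 without sham replicate 2.

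Of 8 ubiquitin ligase genes of muscle and protein quality control 7 were higher (median 0.074). The count was 3 without sham replicate 1 (median -0.059) and 6 without sham replicate 2 (median 0.255). Fbxo32, which encodes atrogin, measured 8.80 and 9.04 in sham and 9.06, 9.07 and 9.17 with the antagonist, a difference of 0.18 ± 0.091 (SE). Its difference was 0.057 without sham replicate 1 and 0.30 without sham replicate 2. Trim54 measured 7.89 and 8.27 in sham and 8.23 on every antagonist array, a difference of 0.15 ± 0.13 (SE). It was -0.040 without sham replicate 1 and 0.34 without sham replicate 2. Of 11 genes of class I antigen presentation, the pathway fed by immunoproteasome peptides, 8 were higher (median 0.094). The median was 0.030 without sham replicate 1, 0.077 without sham replicate 2 and 0.041 without antagonist replicate 2. Of 13 interferon control genes 10 were higher and 2 lower (median 0.068, with 0.13 without sham replicate 1 and 0.019 without sham replicate 2). In the former Calr differed by 0.18 ± 0.099 (SE), or 0.10 without antagonist replicate 2, and Tapbpl by -0.17 ± 0.091 (SE). Tapbpl differed by -0.30 without sham replicate 1 and by -0.039 without sham replicate 2. In the latter Stat2 was 0.48 ± 0.17 (SE) higher and Igtp 0.26 ± 0.095 (SE), with no overlap of the groups for either. The value of Stat2 was 0.27 without sham replicate 1 and 0.68 without sham replicate 2. Antagonist replicate 2 held the highest value of 6 of the 11 presentation genes and 7 of the 13 interferon control genes, and of 1 of the 4 immunoproteasome and thymoproteasome genes. Among all genes tested that array alone held the highest value of 14.8%.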

How the data were processed

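Total RNA of 5 mouse hearts (300 ng per array) was measured on Affymetrix whole-transcript arrays. The authors deposited values processed with RMA, per the submitters' processing notes, and the range of the deposited values is that of log2 data. RMA in its usual form corrects background, normalizes arrays by quantiles and summarises probes by median polish; which options were set is not stated, and for version, probe library and build the entry is "not given in the sources used here". The table held 41345 probes; array medians lay between 3.92 and 3.95. Probes with 1 gene symbol (23521) were used, the brightest probe per symbol was kept, and the 15294 genes whose mean reached 3.42, the 40th percentile over probes, entered the test. All 49 proteasome genes passed this filter, 3 of them (Psma5, Psma8 and Psmb11) with a mean under 4. The test was two-sided, by limma 3.58.1 under R 4.3.3 (lmFit and eBayes without covariates), and p-values were adjusted over these genes by Benjamini-Hochberg; scripts were tested on simulated data. Permutation tests were exact over 10 divisions of the arrays. Alternatives covered the filter, normalization, probe choice, eBayes options, array weights, the replicate number and each array left out.

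Genes given per array are the cutting subunits and their counterparts, Psme1 and Psme2, the 3 largest differences of core, cap, activators and assembly genes, and genes without overlap and a difference of at least 0.1; of each related list the 2 of smallest p are named. Tap1, Tap2, Irf1 and Nfe2l1 were added after their values were seen, and other members are given in brief. Members and lists were chosen with earlier results of these data known. Related lists were also recomputed without each array, a choice made after seeing the data. Probes naming several symbols were left out, and 1 further promoter motif is not reported here. Promoter sequences and gene order came from RefSeq (GRCm38.p6).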

Additional observations from a re-analysis of the deposited data

How the results depend on the processing

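With limma 0 of the genes tested among the 49 had an adjusted p under 0.05 under each alternative to the processing, the replicate block included. That block gives the same differences as leaving out antagonist replicate 3, an array without an equally numbered sham. The 60th percentile filter left 44 of the 49 in the test and the mean of all probes 48, and Psma5 was tested in neither. Leaving out single arrays gave 0 to 5 such genes. The 5 (Psma5, Psmb9, Psmd5, Psme3 and Psmf1) appeared without sham replicate 1 and 3 (Psma5, Psmc6 and Psmd5) without sham replicate 2, where 8.62% and 13.5% of all genes tested had one; a lone sham array is then assumed to vary like the antagonist arrays, and Psma5, Psmd5 and Psme3 have tied antagonist values. The count at an unadjusted p under 0.05 went from 2 to 1 with the 60th percentile filter, the mean of all probes, the replicate block, or the genes with a mean under 4 left out (the last chosen after seeing the data), and was 2 to 11 with single arrays left out (11 without sham replicate 2, where 26.4% of all genes had one, and 10 without sham replicate 1, where 17.2% had). The count of genes whose groups do not overlap went from 4 to 8 with a second quantile normalization (24% of all genes), 7 with arrays centred on their medians (24.7%) and 2 without the genes of mean under 4; it was 4 to 25 with single arrays left out (25 without sham replicate 2 and 22 without sham replicate 1, beside 52.7% and 42.1% of all genes). Genes with a higher mean numbered 24 to 32 with single arrays left out. Class medians with single arrays left out were 0.0087 to 0.10 (core), -0.0051 to 0.083 (cap), -0.10 to -0.0086 (immunoproteasome), -0.11 to -0.061 (activators) and 0.010 to 0.065 (assembly); the last was 0.0034 with the mean of all probes. The difference reached 0 or changed sign without some array for 25 of the 49 genes, among them, of the genes given per array, Psmb5 (-0.15 to 0.071), Psmb7 (-0.0049 to 0.078), Psmb8 (-0.031 to 0.059), Psmd5 (-0.31 to 0.14) and Psme2 (-0.50 to 0.078). The cause of these changes was not tested. The labels give no shared origin for equal replicate numbers; the deviations of equally numbered arrays correlated at -0.108 (replicate 1) and 0.027 (replicate 2) across genes, and the replicate block gave 1 gene at an unadjusted p under 0.05.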

Other observations

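Some proteasome genes are also named by probes that carry more than 1 symbol, and these probes belong to no comparison above. The brighter of the probes named Psma4 and AY074887 measured 8.61 and 8.54 in sham and 8.54, 8.47 and 8.54 with the antagonist, a difference of -0.061; Psma4 encodes the alpha subunit that had no probe of its own. A probe named Armc9 and Psmd1 measured 4.52 and 4.71 in sham and 4.92, 4.98 and 4.99 with the antagonist, 0.35 higher, whereas the probe of Psmd1 alone differed by -0.036. A probe shared by Psme2 and 9930111J21Rik1 and 9930111J21Rik2 measured 6.07 in sham replicate 2 and 5.97, 6.37 and 6.25 with the antagonist, and was highest in sham replicate 1, as Psme2 alone was; the difference was -0.34.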
